A study of Homo sapiens with 6 samples.

Results

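EIF2AK1, EIF2AK2, EIF2AK3, EIF2AK4, EIF2S1, PPP1R15B, ERN1 and ATF6 encode the stress sensors that act upstream of the transcription factor ATF4, or beside it in the response to unfolded protein. These 8 of 19974 protein-coding genes were taken by name, and their accessible regions were all peaks within 50 kb of each gene body on hg38, merged over libraries. That gave 162 regions of 216029 in all. The data came from ATAC-seq, which marks open DNA by where Tn5 transposase can insert adapters, of KMS-11, a human plasma cell myeloma line. The 3 control libraries were labelled with the treatment LentiV2 and the 3 knockdown libraries with LentiV2_ATF4g3 and the library name ATF4KD. Both groups were given the genotype WT, and the treatment labels of both name LentiV2, a lentiviral vector. A single guide label was used, the labels do not say how the guide acts, and the peak lists hold no measure of ATF4 RNA or protein. The comparison asks whether open chromatin at these sensor and partner genes differed between cells labelled as controls and as ATF4 knockdown.

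The integrated stress response converges on phosphorylation of eIF2alpha, the product of EIF2S1. Of its kinases, EIF2AK1 (HRI) senses haem shortage and mitochondrial stress, EIF2AK2 (PKR) senses double-stranded RNA, EIF2AK3 (PERK) senses unfolded protein in the endoplasmic reticulum, and EIF2AK4 (GCN2) senses uncharged tRNA. Phosphorylated eIF2alpha lowers general translation and raises that of ATF4, and PPP1R15B (CReP) directs protein phosphatase 1 to reverse the mark. ERN1 (IRE1alpha), which splices XBP1 mRNA, and ATF6, which is cleaved in the Golgi to release a transcription factor, are the other sensors of the endoplasmic reticulum. Plasma cells, which secrete large amounts of antibody, depend on this machinery.

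Promoter sequences are shown first for 4 genes, chosen after the matches were seen: PPP1R15B and EIF2AK2, the only ones with the ATF4 or the interferon letters, and ERN1 and EIF2AK3, with several GC or CCAAT boxes. The 250 bases upstream of the transcription start come from RefSeq (GRCh38.p14), 5′ to 3′ on the gene's strand, and 7 of the 8 genes had an entry, EIF2AK1 being the exception. In PPP1R15B the capitals mark a match to the amino acid response element TGATGNAA, the letters bound by ATF4 with C/EBP proteins. In ERN1 they mark GC boxes (GGGCGG), and in EIF2AK3 CCAAT boxes, each on either strand. For EIF2AK2, 30 bases around the start are given with the letters of the interferon-stimulated response element (GAAANNGAA) in capitals.
PPP1R15B, chr1:204411818-204412067, minus strand: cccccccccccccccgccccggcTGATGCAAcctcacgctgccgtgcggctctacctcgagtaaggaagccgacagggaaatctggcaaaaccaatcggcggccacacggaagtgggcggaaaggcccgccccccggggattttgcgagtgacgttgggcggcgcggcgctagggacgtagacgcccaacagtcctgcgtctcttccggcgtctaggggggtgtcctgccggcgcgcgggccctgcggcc
ERN1, chr17:64130145-64130394, minus strand: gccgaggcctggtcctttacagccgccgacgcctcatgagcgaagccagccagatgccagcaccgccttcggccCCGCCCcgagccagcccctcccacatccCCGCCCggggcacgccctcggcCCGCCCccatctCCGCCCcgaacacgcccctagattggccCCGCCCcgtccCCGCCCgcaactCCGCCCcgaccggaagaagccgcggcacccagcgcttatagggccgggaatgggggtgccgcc
EIF2AK3, chr2:88627465-88627714, minus strand: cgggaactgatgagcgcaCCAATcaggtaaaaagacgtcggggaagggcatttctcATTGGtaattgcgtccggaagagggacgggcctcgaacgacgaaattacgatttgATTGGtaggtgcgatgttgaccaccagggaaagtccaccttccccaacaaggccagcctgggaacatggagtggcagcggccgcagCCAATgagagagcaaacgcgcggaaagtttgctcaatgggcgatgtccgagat
EIF2AK2, chr2:37156971-37157000, minus strand: gcggagtccaagggGAAAACGAAactgaga

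All 4 sequences lay within regions listed in all 6 libraries. The PPP1R15B match, TGATGCAA, lay at −227 to −220 from the start, and 3.67% of 27305 promoters (the same 250 bases with 50 bases after the start) held TGATGNAA on either strand. None of the other 6 promoters of the sensor genes did. ERN1 held 7 GC boxes, found at least once in 44.59% of promoters, and EIF2AK3 held 4 CCAAT boxes, found in 35.7%. The EIF2AK2 match spanned the start, from −6 to 2, and its letters occurred in 8.29% of promoters. The CRE (TGACGTCA), the UPR element (TGACGTG), the MARE core letters TGCTGAG and the ER stress element, which pairs CCAAT with CCACG, were in none of the 7 windows. The AP-1 letters TGANTCA were in EIF2AK4 (7.76% of promoters), and the NF-kB letters GGNNTTTCC in EIF2AK3 and PPP1R15B (6.26%). In PPP1R15B that NF-kB match and neighbouring GC boxes share bases. A match describes letters and is no evidence of a bound factor.

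The libraries differed in depth along with the groups. The background pileup, which is the library-wide rate of overlapping tags recovered from each list and serves as its depth, was 2.79 to 3.52 in control cells and 2.15 to 2.51 in knockdown cells. Each list held 220250 to 238246 summits. The median fold enrichment over the 68049 regions listed in all 6 libraries was 9.95 ± 1.04 in control cells and 7.10 ± 0.43 in knockdown cells (mean ± SD, n = 3 each). A two-sided exact permutation test gave p = 0.1, its lowest possible value with 3 libraries a group. Start regions, those within 1 kb of a transcription start or of an annotated gene end where strand is not known, kept 0.876 of their control median, and other regions 0.690. Depth and group cannot be told apart in these libraries. Regions at the starts of all 10 plasma cell and myeloma markers were present in all 6 libraries, and MS4A1, CD14, CSF1R, LYZ, SPI1, CD3D, CD2 and NKG7 had none in any. Other markers of B, T and NK, epithelial and stromal cells, among them PAX5, CD3E and EPCAM, did have one. The myeloid marker MPO had one in 5 of the 6 libraries. A region at a start therefore does not by itself mark a cell type.

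Each sensor gene had an open start in every library, and a larger share of their regions than of all regions was listed in every library. Of the 162 regions, 80 (49.4%) were listed in all 6 libraries, against 31.5% of all regions, and 39 (24.1%) in 1 library, against 32.5%. All regions include those far from genes, and the share in windows around other genes was not counted. ATF6 had 43 regions, 17 of them in all 6 libraries, and ERN1 had 39 with 15. The kinases had 14 with 9 (EIF2AK1), 11 with 5 (EIF2AK2), 18 with 11 (EIF2AK3) and 17 with 11 (EIF2AK4). PPP1R15B had 13 with 7, and EIF2S1 had 7 with 5. Long genes have long windows, so these counts follow gene length in part. The windows also hold regions of neighbouring genes. Regions assigned to the sensor itself as nearest gene were 30 at ATF6, 29 at ERN1 and 14 at EIF2AK3. They were 4 at EIF2AK4, 3 at EIF2AK1, 2 at EIF2AK2, 2 at PPP1R15B and 1 at EIF2S1. The map of regions along the 8 genes shows this layout.

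**Figure D1:**
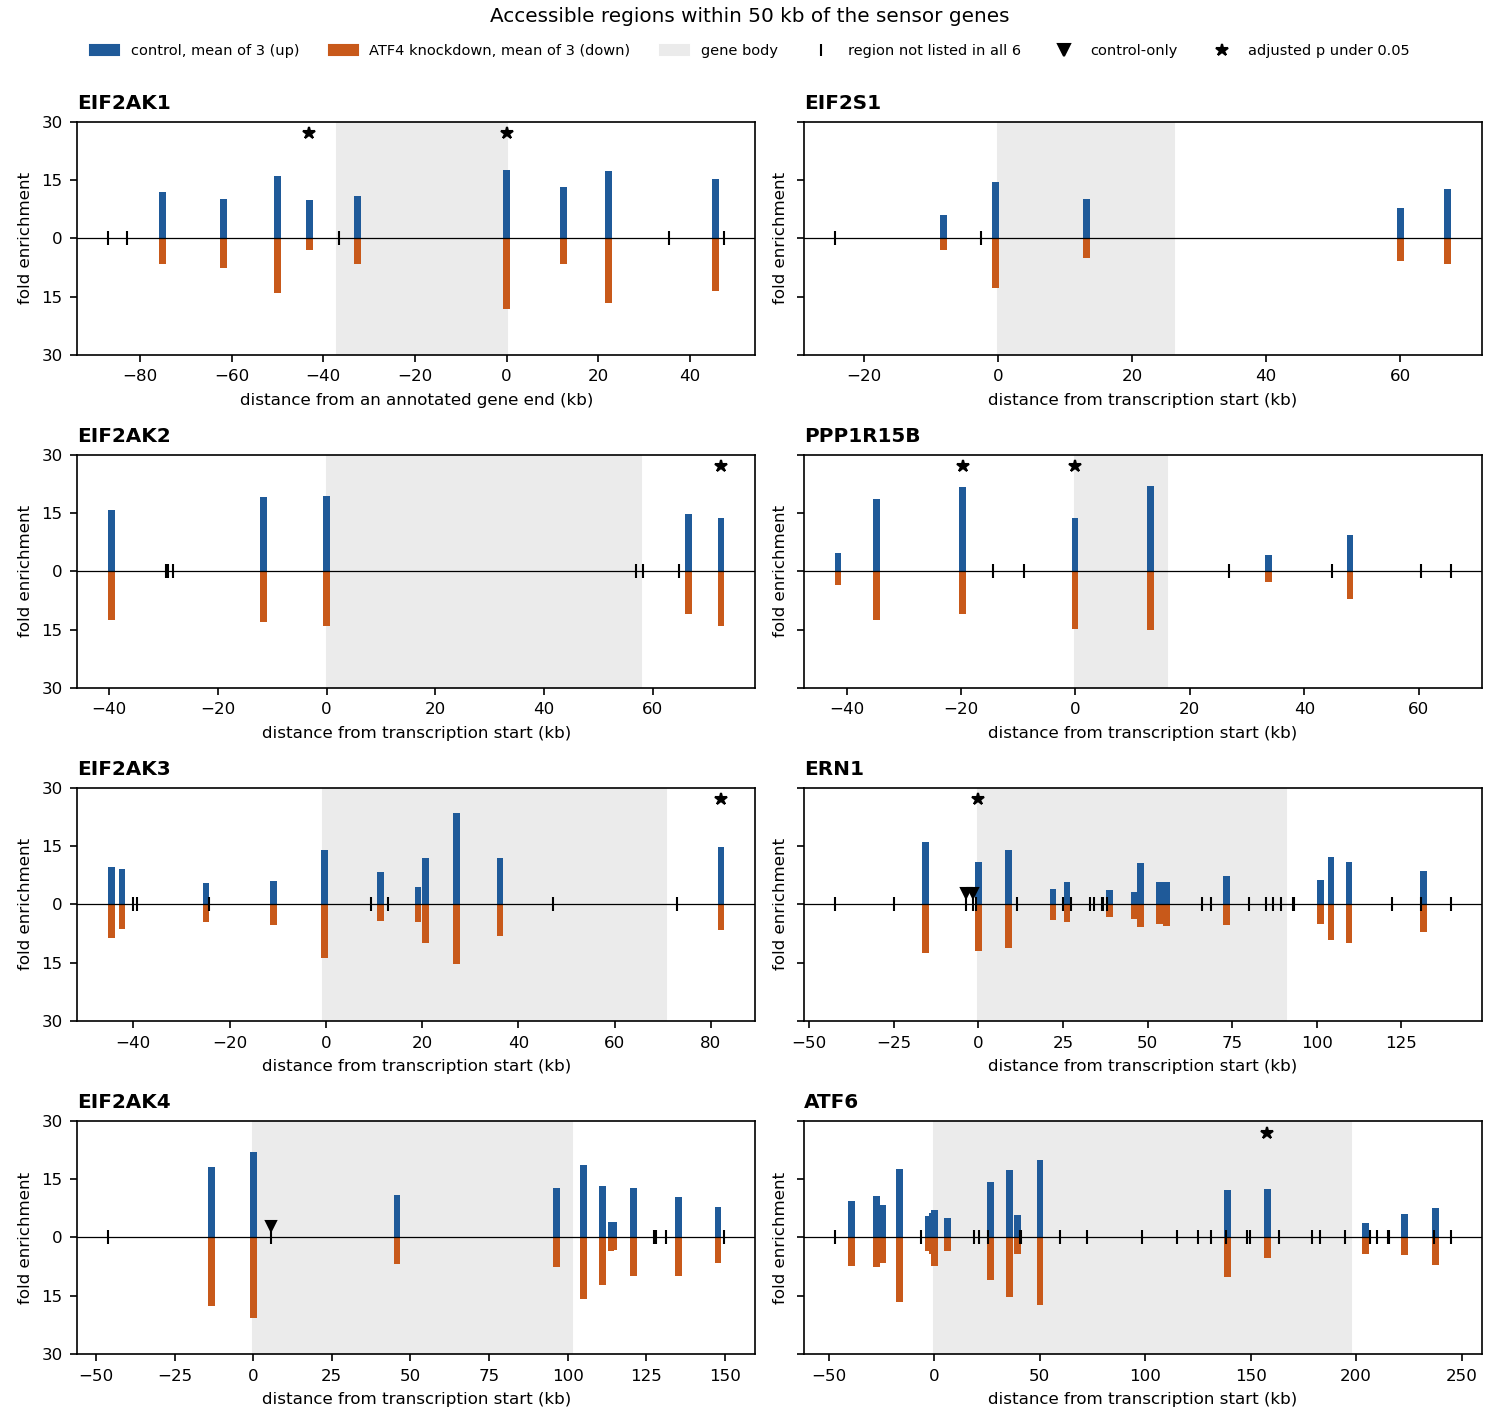
Mean fold enrichment (ratio, 3 libraries each) of regions listed in all 6 libraries, controls upward and knockdown downward, against distance in kb from the transcription start, or for EIF2AK1 from an annotated end in the direction of the coordinates. Ticks are the other regions, triangles the 3 control-only regions and stars the regions past an adjusted p of 0.05. Every gene has a bar at 0, and the control-only triangles stand at EIF2AK4 and upstream of ERN1.

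Summed over 50 kb, no sensor gene passed the test in covered length, the bases under listed peaks scaled to equal library totals, but other settings made calls in both directions. In limma over 19690 genes, 2.67% were lower and 2.88% higher at an adjusted p under 0.05, and 0 of the 8 sensors passed in either direction. These lengths include regions nearest to other genes, and of the 7 regions in the EIF2S1 window only 1 was assigned to EIF2S1. EIF2S1 had 3382, 3419 and 3056 bp in control cells and 2497, 2612 and 2478 bp in knockdown cells. The groups did not overlap, and the log2 difference was −0.35 (SE 0.12, limma adjusted p = 0.0979). ERN1 had 15362, 15283 and 15861 bp against 13565, 13087 and 14181 bp, again without overlap, with a log2 difference of −0.19 (SE 0.06, limma adjusted p = 0.102). The other 6 genes lay between −0.08 (EIF2AK4) and 0.07 (EIF2AK2). Their groups overlapped, as the plot of covered length shows. The share of all genes whose groups do not overlap was not counted. With only peaks of a −log10 q from 5 up, where 4.69% of genes were lower and 18.7% higher, 4 sensors passed as higher by limma. They were EIF2AK2 (0.25, adjusted p = 0.0443), EIF2AK3 (0.24, adjusted p = 0.0342), EIF2AK4 (0.23, adjusted p = 0.0294) and ATF6 (0.21, adjusted p = 0.0456), and the ERN1 difference was 0.02. Without scaling, where 21.0% were lower and 2.33% higher, 3 passed as lower by limma, EIF2S1 (−0.47, adjusted p = 0.0192), ERN1 (−0.31, adjusted p = 0.00855) and EIF2AK4 (−0.21, adjusted p = 0.044). The direction for EIF2AK4 thus turned with the setting, and the cause was not tested.

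**Figure D2:**
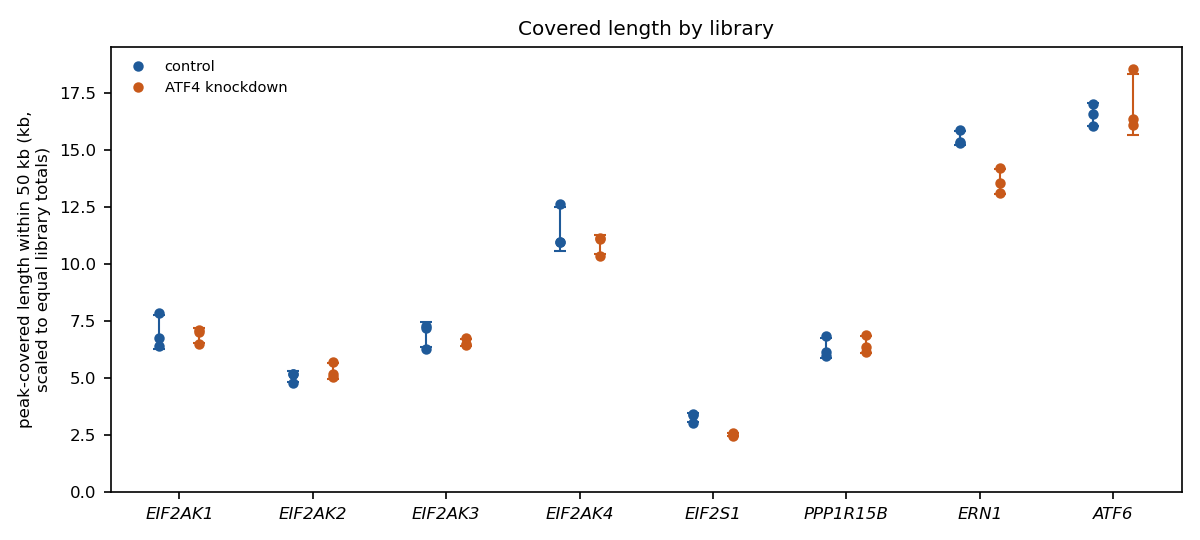
Peak-covered length within 50 kb of each gene body (kb, scaled to equal library totals), with 1 point per library and bars for mean ± SD of 3. The groups separate only at EIF2S1 and ERN1, whose limma adjusted p is 0.0979 and 0.102. How many of all genes separate was not counted.

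The fold at starts was compared after quantile normalization, which gives each library the same set of values, so a difference is a move relative to the other shared regions. Of 12473 start regions, 0.585% were lower and 6.93% higher in knockdown cells, with a median log2 difference of 0.20. Of 55576 other regions, 3.78% were lower and 1.75% higher, with a median of −0.03. Over both kinds this was 2174 lower and 1839 higher, but 2420 lower and 6859 higher when libraries were centred on their medians. Among the start regions of the 8 sensors, 0 were lower and 3 higher, 7 lay above 0, and their median was 0.38. Of all 12473 start regions, 10205 lay above 0. The rise of starts relative to other regions was thus seen across the whole set. Before normalization, the library medians of fold over start regions were 12.9, 13.7 and 12.3 in control cells and 11.1, 11.4 and 11.6 in knockdown cells. These did not overlap. How many of all regions separate between the groups, in any measure given below, was not counted.

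ERN1 had the start region that rose by both measures used, fold and pileup, after normalization. Its region (chromosome 17, 64129317 to 64130773) had folds of 10.1, 11.0 and 11.6 in control cells and 11.4, 13.0 and 11.9 in knockdown cells. The unnormalized groups overlapped, while its percentile among shared regions went from 53.3, 49.2 and 66.4 to 81.2, 85.6 and 78.7 without overlap. The log2 difference in normalized fold was 0.58 (SE 0.13, limma adjusted p = 0.0361). With the pileup, the number of overlapping tags at the summit, in place of the fold, it was 0.52 (SE 0.10, limma adjusted p = 0.000773), where 6.66% of all shared regions were lower and 5.88% higher. Before normalization the pileups were lower in knockdown cells, 288, 286 and 382 against 241, 252 and 253, without overlap. With starts and other regions fitted apart, the fold difference was 0.34 (limma adjusted p = 0.0573). The use of the pileup was chosen after seeing the data. The region was also wider in knockdown cells, 1154, 1130 and 1156 bp against 1394, 1323 and 1297 bp, a log2 difference of 0.36 (SE 0.06, limma adjusted p = 0.134) that did not pass.

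PPP1R15B, whose promoter carries the ATF4 letters shown above, also rose at its start in normalized fold. The region (chromosome 1, 204410536 to 204412390) had folds of 13.7, 14.7 and 13.1 in control cells and 15.6, 13.2 and 15.5 in knockdown cells. These overlapped, and its percentile went from 74.2, 69.7 and 74.8 to 94.7, 86.2 and 92.1. The log2 difference was 0.47 (SE 0.11, limma adjusted p = 0.0343), but 0.18 by pileup (limma adjusted p = 0.207) and 0.28 with starts fitted apart (limma adjusted p = 0.0678). Its covered width was 1709, 1774 and 1693 bp in control cells and 1107, 1068 and 1566 bp in knockdown cells, a log2 difference of −0.37 (SE 0.13, limma adjusted p = 0.326) without overlap of the groups. The width and the fold therefore differed in sign. Before normalization, the library medians of width over all shared regions were also lower in knockdown cells without overlap, 657, 621 and 657 bp against 503, 511 and 536 bp.

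EIF2AK1, with no strand in the table used, rose in normalized fold at the region over an annotated end (chromosome 7, 6058545 to 6059547), taken here as its start. Its folds were 16.1, 19.6 and 16.8 against 17.5, 18.2 and 18.7, and its percentiles 84.7, 88.8 and 90.6 against 97.7, 97.9 and 97.8. The log2 difference was 0.39 (SE 0.08, limma adjusted p = 0.0283), and 0.15 by pileup (limma adjusted p = 0.414). With starts fitted apart it was 0.26 (SE 0.07, limma adjusted p = 0.0477), the 1 sensor start called higher in that fit. There 497 of 12473 start regions were lower and 378 higher. The local background there was 4.12 to 4.46 times the library rate in control cells and 2.95 to 3.10 times in knockdown cells, and its part in the fold was not tested.

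EIF2AK2 was the one sensor whose start had a fold difference below 0. Its region (chromosome 2, 37156199 to 37157377) had folds of 19.0, 20.7 and 18.2 in control cells and 14.0, 14.2 and 13.9 in knockdown cells, without overlap. The log2 difference was −0.12 (SE 0.08, limma adjusted p = 0.396) among all shared regions. Fitted among start regions alone it was −0.26 (SE 0.06, limma adjusted p = 0.0365), so the call depends on which regions it is set against, and median centring gave 0.03. By pileup it was −0.22 (limma adjusted p = 0.246), and −0.34 with starts fitted apart (limma adjusted p = 0.0372). Its percentile went from 93.4, 91.6 and 94.0 to 90.8, 89.9 and 87.4.

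The other starts did not pass. EIF2AK3 (chromosome 2, 88626742 to 88628338) had folds of 13.2, 15.3 and 13.3 against 13.5, 14.3 and 13.5, a log2 difference of 0.37 (SE 0.10, limma adjusted p = 0.0518) that was −0.07 by pileup. ATF6 (chromosome 1, 161765811 to 161767040) had the lowest folds of the 8 starts, 7.17, 6.86 and 7.19 against 7.21, 6.70 and 7.91, with a difference of 0.51 (SE 0.17, limma adjusted p = 0.0964). EIF2AK4 (chromosome 15, 39933646 to 39934762) had the highest, 21.6, 23.3 and 20.8 against 20.0, 21.9 and 20.0, with 0.21 (SE 0.07, limma adjusted p = 0.1). EIF2S1 shares its start region (chromosome 14, 67359520 to 67360795) with ATP6V1D, a proton pump subunit, inside the gene GPHN. Its folds were 13.9, 14.2 and 15.1 against 12.6, 13.5 and 12.6, lower without overlap before normalization, with 0.23 (SE 0.12, limma adjusted p = 0.242), and the signal cannot be assigned to either gene. Start widths of these 4 genes, EIF2AK1 and EIF2AK2 differed by −0.02 to 0.14 on the log2 scale, and 0 of 68049 regions passed in width (0.0%). At an unadjusted p under 0.05, 4475 were narrower and 4761 wider, and median centring gave 415 and 2554 at the adjusted threshold.

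**Figure D3:**
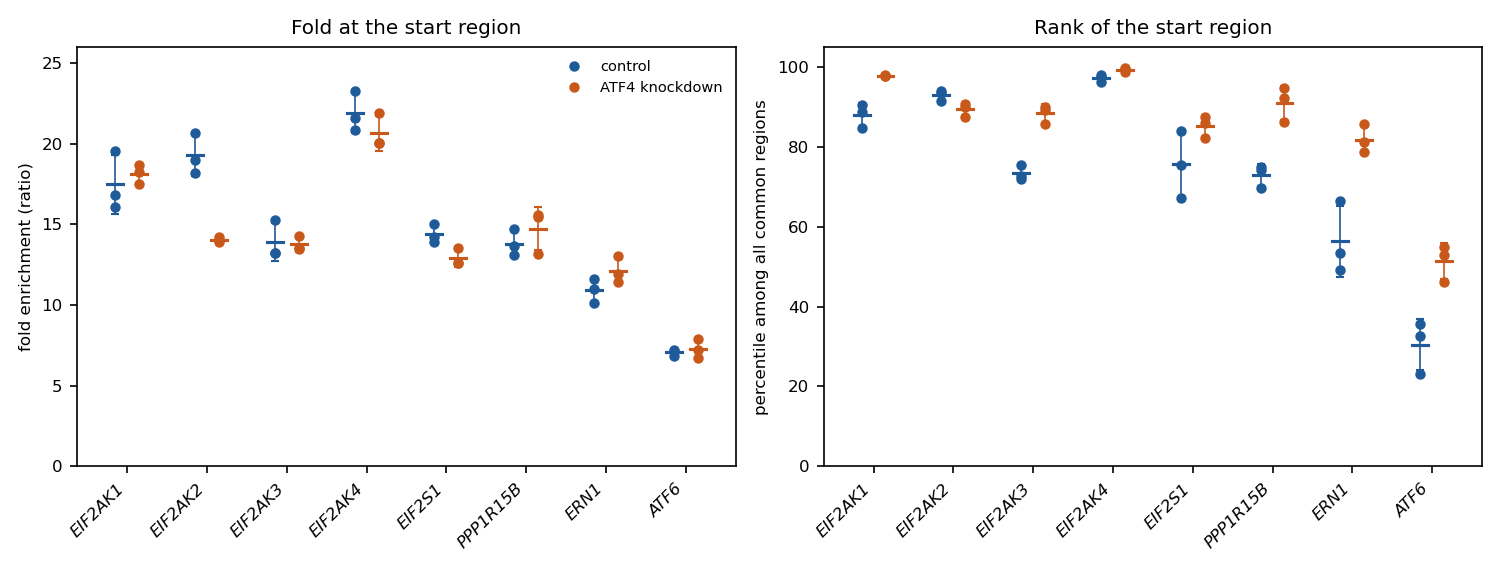
Start regions of the 8 sensors, with fold enrichment (ratio) on the left and the percentile among regions listed in all 6 libraries on the right, 1 point per library and bars for mean ± SD of 3. Percentiles of the groups separate upward at 6 genes, downward at EIF2AK2 and not at EIF2S1, while folds separate only at EIF2AK2 and EIF2S1, both downward. Of all 12473 start regions, 10205 had a normalized fold difference above 0. How many of them separate in percentile or fold was not counted.

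Away from starts, 4 of 62 shared regions were lower and 0 higher, against 3.78% and 1.75% of all such regions. Below 0 lay 29 of the 62, and 30004 of all 55576 such regions. The largest difference was at a region inside AIMP2, a scaffold of the tRNA synthetase complex (chromosome 7, 6015634 to 6016567). It lay 5.68 kb outside the EIF2AK1 body and 43.1 kb from the annotated end taken as its start. In knockdown cells its peaks were weak, with a −log10 q of 2.42, 1.53 and 3.13. Its folds were 10.3, 8.61 and 10.9 in control cells and 3.06, 2.70 and 3.33 in knockdown cells, and its pileups 95, 67 and 91 against 12, 10 and 13. Neither measure overlapped, and the log2 difference in normalized fold was −1.35 (SE 0.22, limma adjusted p = 0.015), or −1.96 by pileup (limma adjusted p = 2.95e-06). The library medians of unnormalized fold over all shared regions away from starts did not overlap either. They were 8.99, 10.5 and 8.43 in control cells and 5.99, 6.48 and 6.84 in knockdown cells. The region lies in the EIF2AK1 window but is nearest to AIMP2.

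Inside ATF6, 158 kb after its start, a region (chromosome 1, 161923691 to 161924392) fell from folds of 11.0, 15.1 and 11.2 to 4.92, 5.54 and 5.50. The groups did not overlap, but neither did the library medians of all such regions, and how many regions separate was not counted. The log2 difference at this ATF6 region was −0.74 (SE 0.16, limma adjusted p = 0.0276) and −0.83 by pileup (limma adjusted p = 0.0122). The strongest regions inside ATF6, 35.8 and 50.1 kb after the start, differed by 0.17 and 0.13 and did not pass. So within 1 gene the sites did not move alike in value, though the difference between sites was not tested.

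Beyond the far end of EIF2AK3, 82.1 kb from its start and between genes, a region (chromosome 2, 88544983 to 88545797) fell from folds of 13.6, 16.9 and 13.9 to 5.99, 6.73 and 7.13. The log2 difference was −0.72 (SE 0.13, limma adjusted p = 0.0182), and −0.54 by pileup (limma adjusted p = 0.121). The strongest region inside EIF2AK3, 27.2 kb after the start (chromosome 2, 88599957 to 88600679), had pileups of 293, 325 and 297 in control cells and 71, 77 and 104 in knockdown cells. Its fold difference was −0.29 (SE 0.09, limma adjusted p = 0.0696), while its pileup difference was −0.93 (SE 0.12, limma adjusted p = 1.57e-06). The local background at this site was 3.49 to 4.33 times the library rate in control cells and 1.59 to 2.07 times in knockdown cells. Another EIF2AK3 site, 20.6 kb after the start, differed by 0.20 and did not pass.

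Upstream of PPP1R15B, 19.7 kb away and inside PIK3C2B, a lipid kinase gene, a region (chromosome 1, 204431196 to 204432160) fell from folds of 22.9, 24.1 and 18.4 to 8.97, 13.1 and 11.3. The log2 difference was −0.62 (SE 0.12, limma adjusted p = 0.0222), and −0.30 by pileup (limma adjusted p = 0.265). It is nearest to PIK3C2B. The fourth higher start region, in the EIF2AK2 window, belongs to the shared start of GPATCH11 and HEATR5B (chromosome 2, 37083755 to 37084885), with 0.42 (SE 0.11, limma adjusted p = 0.0488) by fold and 0.16 by pileup (limma adjusted p = 0.352).

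By pileup, 6 of the 80 shared regions of the sensors were lower and 3 higher, against 6.66% and 5.88% of all shared regions. Below 0 lay 39 of the 80. Inside ERN1 the pileup fell at sites where the fold did not pass. The region 47.8 kb after the start (chromosome 17, 64081823 to 64082740) had pileups of 86, 93 and 90 in control cells and 19, 20 and 33 in knockdown cells, a pileup difference of −0.94 (SE 0.22, limma adjusted p = 0.00315) and a fold difference of −0.44 (limma adjusted p = 0.119). The region 8.81 kb after the start (chromosome 17, 64120677 to 64121753) had pileups of 219, 246 and 211 against 81, 86 and 89. Its pileup difference was −0.43 (SE 0.13, limma adjusted p = 0.0217) and its fold difference 0.09 (limma adjusted p = 0.666), opposite in sign. With starts and other regions fitted apart, the pileup difference at 8.81 kb was −0.35 and did not pass (limma adjusted p = 0.0781), while those at 47.8 kb (−0.93) and at the ERN1 start (0.46) did. Inside EIF2AK4, EIF2S1, EIF2AK1 and PPP1R15B, the strongest other shared regions had fold differences of −0.17 to −0.49 and did not pass. EIF2AK2 had no other shared region of its own, and its strongest other region was listed in 2 libraries, control 1 and knockdown 1.

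**Figure D4:**
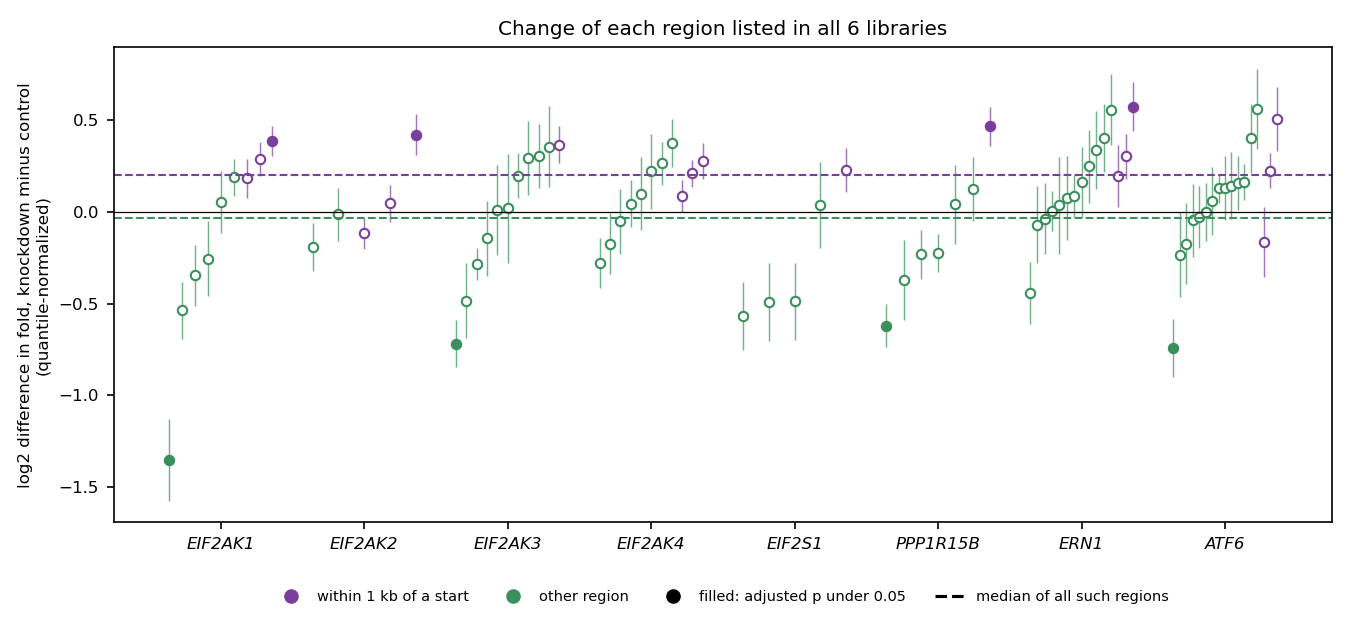
Log2 difference in quantile-normalized fold, knockdown minus control, with SE, for the 80 regions listed in all 6 libraries by gene. Filled points pass an adjusted p of 0.05, 4 higher among start regions and 4 lower among the others, and dashed lines give the medians of all start (0.20) and other (−0.03) regions.

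Regions found in 1 group alone were few. Present meant a −log10 q of at least 2 in all 3 libraries of a group, with no listed peak in the other group. There were 3 control-only regions (1.85% of 162, against 1.5% of all regions) and 0 knockdown-only (against 0.102%), which is near the background. Upstream of ERN1, 1.53 kb before the start (chromosome 17, 64131508 to 64132016), a region had pileups of 68, 81 and 86 in control cells and a −log10 q of 8.91, 16.9 and 12.9. A second lay 3.63 kb before the start (64133677 to 64133854), with pileups of 52, 61 and 74 and a −log10 q of 4.28, 9.28 and 9.78. The local background at both was 7.78 to 9.09 times the library rate, and their folds were 2.05 to 3.20, so they stand little above that local background. Inside EIF2AK4, 5.51 kb after the start (chromosome 15, 39939532 to 39940231), the last of them had pileups of 13, 15 and 17 on flat background. A weak region like this is missed sooner in a shallower library, and the part of depth in its absence was not tested.

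Genes that work with the sensors were read in the same fit. Of 24 partners and regulators of the kinases and of eIF2, 2 were lower in covered length and 0 higher, against 2.67% and 2.88% of all genes, and 20 lay below 0, with a median log2 difference of −0.15 against −0.04 for all genes. The share of all genes below 0 was not counted. DNAJC3, which encodes an inhibitor of EIF2AK2 and EIF2AK3, had 5687 ± 614 bp in control and 3654 ± 549 bp in knockdown cells (SD, n = 3), and differed by −0.62 (SE 0.12, limma adjusted p = 0.0142). The call was lost without control 2 (limma adjusted p = 0.0748) or control 3 (0.0846), with peaks of a −log10 q from 5 up (−0.37, 0.0633) and at gene ends (−0.19, 0.58). PPP1CA, a catalytic subunit of the phosphatase that PPP1R15B directs, had 12776 ± 349 and 10636 ± 460 bp, a difference of −0.26 (SE 0.07, limma adjusted p = 0.0386). That call was lost with peaks of a −log10 q from 5 up (−0.025, limma adjusted p = 0.826), with 10 kb windows (−0.11, 0.675), and without control 1, 2 or 3 or knockdown 1 or 2 (0.0731 to 0.125). Of the start regions of these 24 genes, 0 were lower and 3 higher (EIF2D, PPP1CA and PPP1CC), with a median of 0.27, against 0.585% lower, 6.93% higher and a median of 0.20 for all start regions. Of 25 partners and effectors of ERN1 and ATF6, 0 passed in either direction and 15 lay below 0, with a median of −0.05 against −0.04 for all genes. The smallest p values were those of CREB3L2 (−0.25, SE 0.08, limma adjusted p = 0.088) and MBTPS2, a protease that cleaves ATF6 (−0.35, SE 0.15, limma adjusted p = 0.183). At their starts 1, DNAJB9, a chaperone of the endoplasmic reticulum, was higher, against the same 6.93%, with a median of 0.20, that of all start regions.

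All these calls in fold rest on 3 libraries against 3, and control library 2 weighed most. Without it, 0 regions were lower and 1 higher of all 68049, and 0 of the sensor regions passed in either direction. Without control 1, 108 regions were lower and 45 higher, and without control 3, 190 and 87, with 0 of the sensor regions passing in either case. Without knockdown 1, 2 or 3, the sensor regions called lower were 3, 4 and 4, and those called higher 0, 1 and 0. The differences themselves kept their sign when any 1 library was left out, at each of the 8 regions called. These regions were picked for passing in all 6 libraries, so a kept sign could hardly fail and adds no support.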

How the data were processed

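ATAC-seq peak lists of 3 control and 3 knockdown libraries of KMS-11 were used, 1 list per library. MACS2 and hg38 are named in the submitters' processing notes, and peaks were listed per library. The caller's version and settings, the aligner and whether reads were shifted for the transposase offset: not given in the sources used here. Column 7 as deposited holds a fold enrichment, the ratio of summit pileup to local background. Columns 8 and 9 as deposited hold −log10 p and −log10 q of each summit, computed per library. These values are the authors' and move with depth.

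The members and the gene lists were chosen with earlier results of these data known. Peaks were merged over libraries, overlapping by 1 bp or more. Covered length within 50 kb of each gene body was scaled to the mean library total and compared as log2(value + 200 bp), a scale that understates changes of sparsely covered genes, for genes covered in at least 3 libraries. Fold and width were compared over regions listed in all 6 libraries, after quantile normalization of log2 values, taking the highest summit of a region. Both used limma 3.58.1 (R 4.3.3; trend and robust settings, Benjamini-Hochberg adjustment over all genes or regions, threshold 0.05), tested on simulated data. The pileup was recovered from fold and −log10 p within 0.01, for 100% of the 4000 summits tried per library. Gene positions, without strand or exons, and 250 bases of promoter came from RefSeq tables (GRCh38.p14); exons and introns were not told apart. Promoter entries gave 15812 genes a strand. A cell type marker is not reported here.

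Of each member the text names the start region, group-specific regions, regions past the threshold, and the 2 other regions nearest to it with the highest −log10 q; of each list, genes past the threshold or else the 2 with the smallest p. Samples are labelled as biological replicates, and p-values measure the spread between them. Same-numbered libraries were not treated as pairs. Their deviations correlated weakly (−0.01 to 0.06), against −0.05 to 0.04 for differently numbered libraries. For covered length the same-numbered values were all the higher ones, 0.036 to 0.059 against −0.05 to 0.0018. Alternatives were other scalings, filters, windows, thresholds, a replicate block, and leaving out each library.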

Additional observations from a re-analysis of the deposited data

How the results depend on the processing

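Genes lower and higher in covered length (525 and 567) were 4136 lower without scaling, which moved the median of all genes from −0.04 to −0.16, 905 and 3608 with only peaks of a −log10 q from 5 up, 123 and 126 with windows of 10 kb, 0 and 0 at gene ends (1689 and 910 at an unadjusted p under 0.05), and 94 to 584 and 187 to 551 with 1 library left out. Shared regions lower and higher in fold (2174 and 1839) were 4533 and 4001 by pileup, 4152 and 3724 by pileup with starts apart, 1186 higher with starts apart, 6859 higher by median centring, and 0 to 1934 and 1 to 900 with 1 library left out. Of the sensor regions (4 and 4), 11 were higher by median centring, 1 by −log10 q, 1 with starts apart, and 0 to 4 lower and 0 to 1 higher with 1 library left out. Widths (0 and 0) were 415 and 2554 by median centring, with 4 of the sensor regions, and 0 to 1 wider with 1 library left out. Control-only regions (3) were 1 with presence from a −log10 q of 5 up, 5 as any listed peak, 6 with absence below a −log10 q of 2 and 3 to 5 with 1 library left out; knockdown-only (0) were 1 as any listed peak and 0 to 1 with 1 library left out.

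Signs turned for covered length with peaks of a −log10 q from 5 up (EIF2AK1 0.17, EIF2AK3 0.24, EIF2AK4 0.23, ERN1 0.024), without scaling (EIF2AK2 −0.053, PPP1R15B −0.090, ATF6 −0.089), with windows of 10 kb (EIF2AK2 −0.12, PPP1R15B −0.048) and at gene ends (EIF2AK2 −0.16, PPP1R15B −0.048, ATF6 −0.16). With 1 library left out they ranged from −0.080 to 0.060 (EIF2AK1), −0.012 to 0.090 (PPP1R15B) and −0.027 to 0.074 (ATF6). Fold differences turned at the EIF2AK2 start by median centring (0.030). By pileup, and by pileup with starts apart, they turned at the EIF2AK3 start (−0.068 and −0.086), the EIF2S1 start (−0.093 and −0.19), ERN1 at 8.81 kb (−0.43 and −0.35) and EIF2AK4 at 45.7 kb (0.0038 and 0.0095). By −log10 q they turned at the last 3 (−0.057, −0.44 and 0.0049). Widths of starts turned at EIF2AK1 over regions with a −log10 q from 5 up (−0.011) and at EIF2S1 by median centring (0.15), and ranged from −0.039 to 0.062 (EIF2AK1), −0.053 to 0.19 (EIF2AK4), −0.10 to 0.046 (EIF2S1) and −0.023 to 0.089 (ATF6) with 1 library left out. The cause was not tested.

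With the replicate number as a block, 757 regions were higher in fold, 2 of them among the sensor regions. In covered length 632 genes were lower and 672 higher. Same-numbered libraries correlated only weakly, and no other count moved by over 1.5 times. Lower depth of the knockdown libraries limits what weak regions can show.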
